A study of Mus musculus with 4 samples.

Results

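The type 2 vomeronasal receptors, named Vmn2r in the mouse, are described here across 4 arrays of nasal mucosa. Their members are the genes whose symbol starts with Vmn2r followed by a number and which have a probe set of their own on the array. Of the 19938 genes with such a probe set, 46 are members. Where a member had several, it was represented by the probe set whose mean over the 4 arrays was highest. Only symbols and this mean entered the rule. The family itself was chosen with earlier results of these data known.

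The mice were wild type (Duox2+/+) or Duox2-/-, a knockout of the gene for an oxidase known to make hydrogen peroxide in epithelia. All were 8 weeks old, with the strain written C56BL/6 in the labels. They were given PBS or flagellin, the protein of bacterial flagella, at 5 ug/ml, with 25 ul applied to each nostril, and the tissue was taken 4 h later. The mucosa was lifted from septum and turbinates, and its total RNA was biotinylated and hybridised to Affymetrix whole-transcript arrays. The comparisons ask how the mucosa responded to flagellin and whether Duox2 mattered for it. Each of the 4 groups had 1 array, so there were no replicates, and no pairwise difference below has an error or a p-value. Whether an array holds 1 mouse or a pool, how the allele was made and whether littermates were used are not given in the sources used here.

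Type 2 vomeronasal receptors are G protein-coupled receptors with a large extracellular ligand-binding domain. They are known from the vomeronasal organ, a paired tube in the base of the nasal septum, where sensory neurons of the basal layer use them to detect peptides and proteins of urine, tears and saliva. Each basal neuron is thought to carry one or few of the specific receptors together with a receptor of the small, broadly shared family C, to which Vmn2r1 belongs. These neurons signal through the G protein subunit Gnao1 and the channel Trpc2, and part of them also carry MHC class Ib molecules of the H2-M10 family. The genes lie in clusters of close copies, which makes cross-hybridisation between members possible.

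As a check of the labels, Duox2 itself had log2 signals of 4.95 and 5.12 in wild type with PBS and flagellin and 5.23 and 5.50 in Duox2-/- with PBS and flagellin. These were under the median of all values, 6.52, and were not lower in the arrays labelled Duox2-/-. Where the probes lie relative to the changed stretch of the gene is unknown here, so this neither bears out nor goes against the label. The knockout arrays are called Duox2-/- below as labelled. The tissue held an abundant olfactory signal, with the olfactory marker protein Omp between 11.85 and 12.16. The array medians over all genes differed little, from 6.84 to 6.86, but the interquartile range was 2.58 in the wild-type PBS array and 2.05 in the Duox2-/- flagellin array.

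The start regions of several members are shown because they tell close copies from distant members whose signals are compared below. Each runs 50 bases to either side of the gene start annotated by RefSeq on GRCm38.p6, and the capitals mark the first ATG at or after that start. Vmn2r81 and Vmn2r1 had large differences between arrays and Vmn2r60 next to none under PBS. Vmn2r9 and Vmn2r15 are copies from a cluster on chromosome 5, and Vmn2r111, Vmn2r112 and Vmn2r113 come from a cluster on chromosome 17.
Vmn2r81, chr10:79247727-79247826 (plus strand): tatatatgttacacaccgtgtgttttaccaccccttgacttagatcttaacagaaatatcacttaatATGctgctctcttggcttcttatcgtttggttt
Vmn2r1, chr3:64081592-64081691 (plus strand): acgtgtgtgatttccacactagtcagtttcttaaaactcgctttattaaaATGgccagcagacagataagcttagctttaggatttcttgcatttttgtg
Vmn2r60, chr7:42116421-42116520 (plus strand): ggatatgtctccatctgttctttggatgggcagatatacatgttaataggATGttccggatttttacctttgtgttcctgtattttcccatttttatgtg
Vmn2r9, chr5:108852461-108852560 (minus strand): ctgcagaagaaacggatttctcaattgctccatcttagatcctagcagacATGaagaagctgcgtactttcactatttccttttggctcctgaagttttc
Vmn2r15, chr5:109297507-109297606 (minus strand): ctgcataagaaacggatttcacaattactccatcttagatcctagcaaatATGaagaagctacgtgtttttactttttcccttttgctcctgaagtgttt
Vmn2r111, chr17:22573224-22573323 (minus strand): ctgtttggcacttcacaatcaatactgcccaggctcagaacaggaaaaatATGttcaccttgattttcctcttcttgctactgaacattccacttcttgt
Vmn2r112, chr17:22601098-22601197 (plus strand): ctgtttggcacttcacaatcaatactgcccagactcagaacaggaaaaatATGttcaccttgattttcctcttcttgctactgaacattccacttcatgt
Vmn2r113, chr17:22943134-22943233 (plus strand): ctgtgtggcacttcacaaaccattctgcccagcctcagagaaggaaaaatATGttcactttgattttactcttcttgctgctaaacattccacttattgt
A RefSeq start region was matched to 43 of the 46 members. In 38 of these 43 the annotated start is the ATG itself, against 5.83% of all 32851 start regions, so most of these gene models begin at the coding sequence and the region before it is not a mapped promoter.

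The members' probe sets were dim. The median log2 signal of the members was 3.44 in wild type with PBS, 3.33 in wild type with flagellin, 4.50 in the Duox2-/- PBS array and 3.80 in the Duox2-/- flagellin array. The Duox2-/- PBS array thus stood highest and both wild-type arrays lowest. No member reached the median of all values, 6.52, by its mean over the 4 arrays, and 2 reached it in their highest array, Vmn2r9 and Vmn2r1, both in the Duox2-/- PBS array. Probe sets differ in how brightly they report the same amount of RNA, so these signals were compared between arrays and not between genes. In whole mucosa fewer vomeronasal neurons and less receptor RNA in each neuron cannot be told apart.

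In 39 of the 46 members, 84.8%, the Duox2-/- PBS array gave the highest of the 4 signals, against 19.5% of all genes. The Duox2-/- flagellin array was highest in the remaining 7, and neither wild-type array was highest in any member. Both Duox2-/- arrays lay over both wild-type arrays in 41 members, 89.1%, against 34.4% of all genes and 62.2% of 1200 non-receptor genes of similar signal, so this order was common among dim genes. In 37 members, 80.4%, the Duox2-/- PBS array was first and the Duox2-/- flagellin array second, against 8.86% of all genes and 18.0% of those of similar signal.

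**Figure D1:**
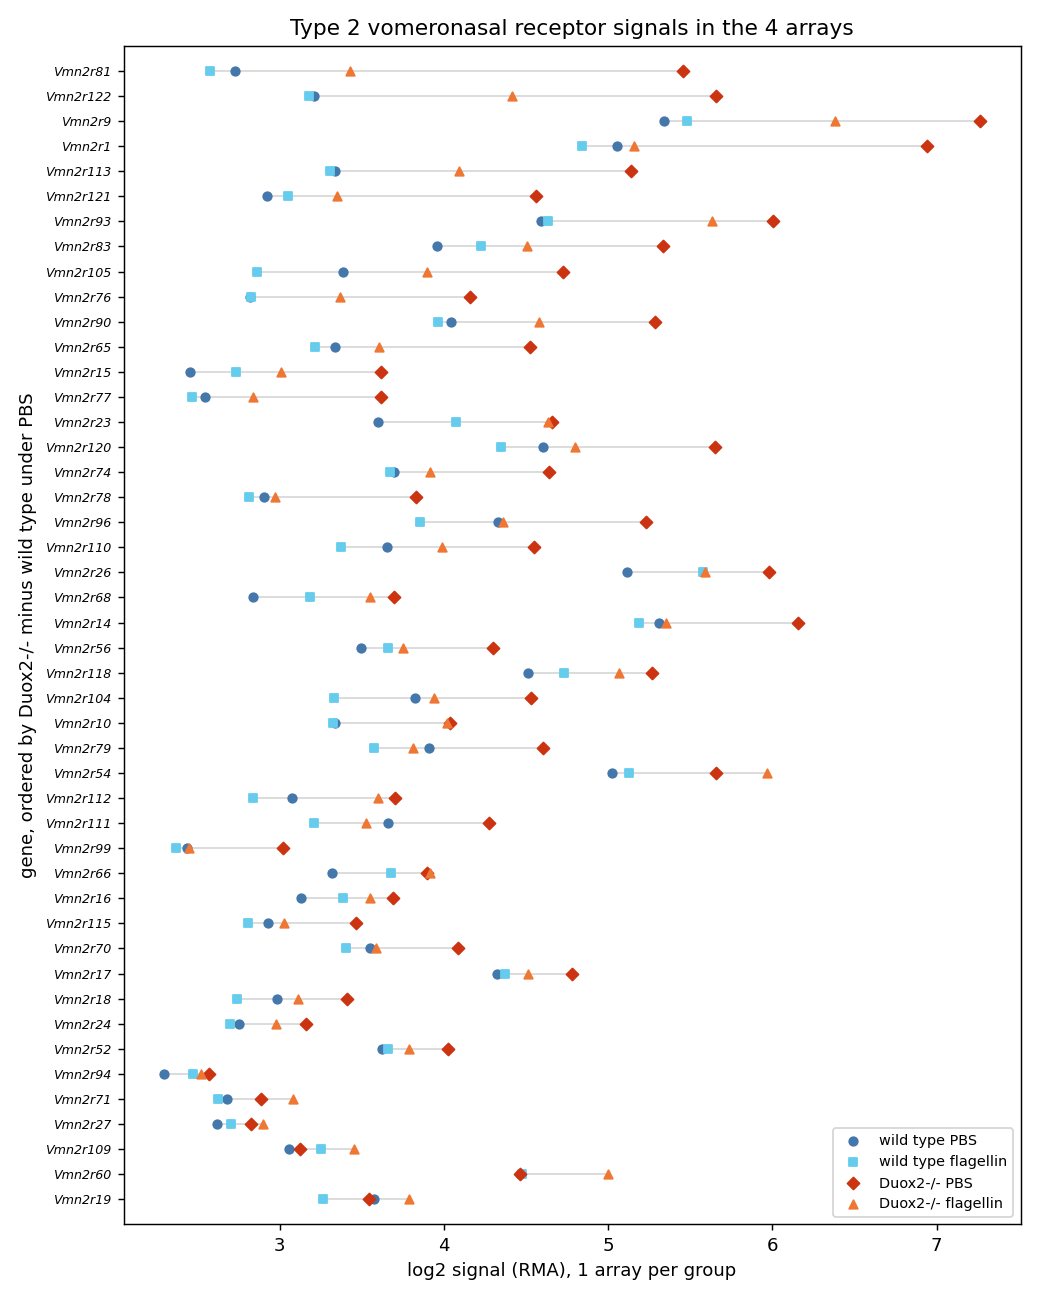
Log2 RMA signal (horizontal axis) of each of the 46 type 2 vomeronasal receptors (vertical axis) in the 4 arrays, 1 point per array, with a grey line from the lowest to the highest. Genes are ordered by the Duox2-/- minus wild type difference in the PBS arrays, which runs from 2.73 for Vmn2r81 to -0.04 for Vmn2r19; the Duox2-/- PBS array is rightmost in 39 genes.

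Under PBS, the receptors were higher in the Duox2-/- array than in the wild-type array. The median log2 difference of the 46 members was 0.82, against 0.04 over all genes. Above 0 were 45 of 46, 97.8%, against 56.3% of all genes and 81% of the 1200 non-receptor genes of similar signal. At a size of 2-fold, a log2 difference of 1, 16 members were higher, against 1.34% of all genes, and 0 were lower, against 0.226%. Just inside that size was Vmn2r120 with 1.05, and just outside it Vmn2r74 with 0.94.

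The member with the largest difference was Vmn2r81, a receptor gene on chromosome 10. Its log2 signal was 2.73 in wild type with PBS, 2.57 in wild type with flagellin, 5.46 in the Duox2-/- PBS array and 3.43 in the Duox2-/- flagellin array. The Duox2-/- PBS array stood alone at the top, 6.63-fold over the wild-type PBS array, with the other Duox2-/- array nearer to the wild-type arrays. Its neighbour Vmn2r83 read 3.96, 4.22, 5.33 and 4.51 in the same order of arrays. There too the Duox2-/- PBS array was highest, by a log2 difference of 1.37 over the wild-type PBS array, and the Duox2-/- flagellin array was second.

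Vmn2r1, a receptor of the broadly shared family C, read 5.05 and 4.84 in wild type with PBS and flagellin and 6.94 and 5.16 in Duox2-/- with PBS and flagellin. It was 3.71-fold higher in the Duox2-/- PBS array than in the wild-type PBS array, and the Duox2-/- flagellin array lay only 0.31 above the wild-type flagellin array. It was the only family C receptor with a probe set of its own.

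Among the specific receptors, Vmn2r122 had signals of 3.21, 3.18, 5.66 and 4.42 in wild type with PBS and flagellin and Duox2-/- with PBS and flagellin, in that order. Vmn2r9, the member with the highest mean, read 5.34, 5.48, 7.26 and 6.38 in these arrays. Vmn2r113 read 3.34, 3.30, 5.14 and 4.09. In these 3 receptors both Duox2-/- arrays were above both wild-type arrays, and the PBS differences between genotypes were 2.45, 1.92 and 1.80 on the log2 scale. Vmn2r121, the member on the X chromosome, read 2.92, 3.05, 4.56 and 3.35, a difference of 1.64 under PBS. The other members of the 16 were Vmn2r93 (1.41), Vmn2r105 (1.34), Vmn2r76 (1.33), Vmn2r90 (1.24), Vmn2r65 (1.19), Vmn2r15 (1.16), Vmn2r77 (1.07), Vmn2r23 (1.06) and those named above.

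Not every receptor followed. Vmn2r60 read 4.46 and 4.47 in wild type with PBS and flagellin, 4.46 in the Duox2-/- PBS array and 5.00 in the Duox2-/- flagellin array, so only the last stood apart. Vmn2r19 read 3.58, 3.26, 3.54 and 3.79 in the same order. Vmn2r109 read 3.06, 3.25, 3.13 and 3.45. In these 3 the genotype difference under PBS was between -0.04 and 0.07, and the Duox2-/- flagellin array was the highest. Vmn2r54, with 5.02, 5.13, 5.66 and 5.97, was higher in both Duox2-/- arrays and highest after flagellin.

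After flagellin, the genotype difference was smaller. The median over members was 0.35, against 0.01 over all genes, with a range from 0.01 for Vmn2r26 to 1.24 for Vmn2r122. The 2-fold size was reached by 2 members, Vmn2r122 and Vmn2r105 (1.03), against 0.476% of all genes, and by 0 in the lower direction, against 1.18%. Vmn2r93 lay just outside with 0.998. All 46 members were above 0, against 50.6% of all genes and 83.9% of the 1200 non-receptor genes of similar signal. The number of members above 0 depended on the scaling of the arrays. It was 44 with each array centred on its median, 42 after quantile renormalisation and 38 after cyclic loess. It was 28 when each member was read against non-receptor genes of similar signal. The genotype difference was smaller after flagellin than under PBS in 40 of 46 members and larger in 6. It was larger in 47.1% of all genes and 61.25% of the 1200 non-receptor genes of similar signal. This is the same quantity as the difference of the flagellin responses given further below.

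The signal range matters here because dim genes of any kind were shifted between these arrays. Non-receptor genes with a 4-array mean within the members' quartiles, 1200 genes, had a median Duox2-/- minus wild type difference of 0.19 under PBS and 0.28 after flagellin. Of them 8, or 0.667%, were 2-fold higher under PBS. Read against non-receptor genes in the same 1-unit range of mean signal, a comparison added after the data were seen, the members' median was 0.62 under PBS, with 43 of 46 above 0 and 13 at least 2-fold higher, and 0.12 after flagellin with 0 at least 2-fold higher.

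**Figure D2:**
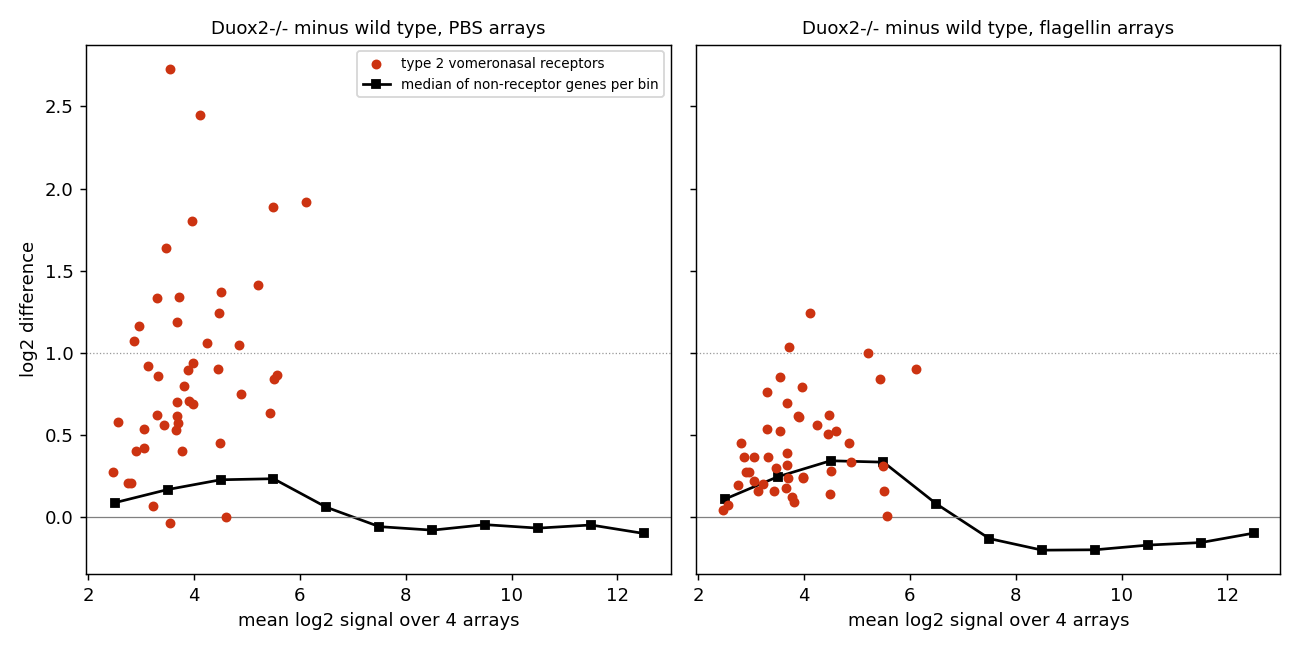
Log2 difference, Duox2-/- minus wild type (vertical axis), against the mean log2 signal over the 4 arrays (horizontal axis), for the PBS arrays at left and the flagellin arrays at right. Red points are the 46 receptors and black squares the median of non-receptor genes in each 1-unit range of signal holding at least 20 genes; the black line peaks at 0.24 under PBS and 0.34 after flagellin in the ranges from 4 to 6, and most red points lie above it at left but lie on both sides of it at right.

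Flagellin left the receptors close to their PBS signals in the wild-type arrays. The median log2 difference, flagellin minus PBS, was -0.03, against 0.01 over all genes, and the members ranged from -0.52 for Vmn2r105 to 0.47 for Vmn2r23, whose second probe set read -0.23. None of the 46 reached 2-fold: 0 were higher, against 0.838% of all genes, and 0 lower, against 0.0552%. The differences were smaller than 0.5 in size in 45 members, and 20 of 46 were above 0, against 52.1% of all genes. Vmn2r26, a receptor described to respond to peptide ligands of MHC class I, read 5.11 and 5.58 in wild type with PBS and flagellin and 5.98 and 5.59 in Duox2-/- with PBS and flagellin, so its wild-type flagellin array was level with the Duox2-/- flagellin array.

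In the Duox2-/- arrays most receptors were lower after flagellin than under PBS. The median difference was -0.55, against -0.01 over all genes. Above 0 were 7 of 46 members, against 48.7% of all genes and 68% of the 1200 non-receptor genes of similar signal. At the 2-fold size 5 members were lower, against 0.466% of all genes, and 0 were higher, against 0.221%. The 5 were Vmn2r81 (-2.03), Vmn2r1 (-1.79), Vmn2r122 (-1.24), Vmn2r121 (-1.21) and Vmn2r113 (-1.04), and Vmn2r65 lay just outside with -0.92. These were also among the 16 that were higher under PBS, and both comparisons use the same Duox2-/- PBS array. A single high array gives opposite signs in them, so they are not independent of each other.

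The flagellin response of the Duox2-/- pair minus that of the wild-type pair had a median of -0.41 over the members, against -0.02 over all genes. It was above 0 in 6 of 46, against 47.1% of all genes and 61.25% of the 1200 non-receptor genes of similar signal. Among the members it ran from -1.87 for Vmn2r81 to 0.56 for Vmn2r19. Without replicates this difference of differences has no test.

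**Figure D3:**
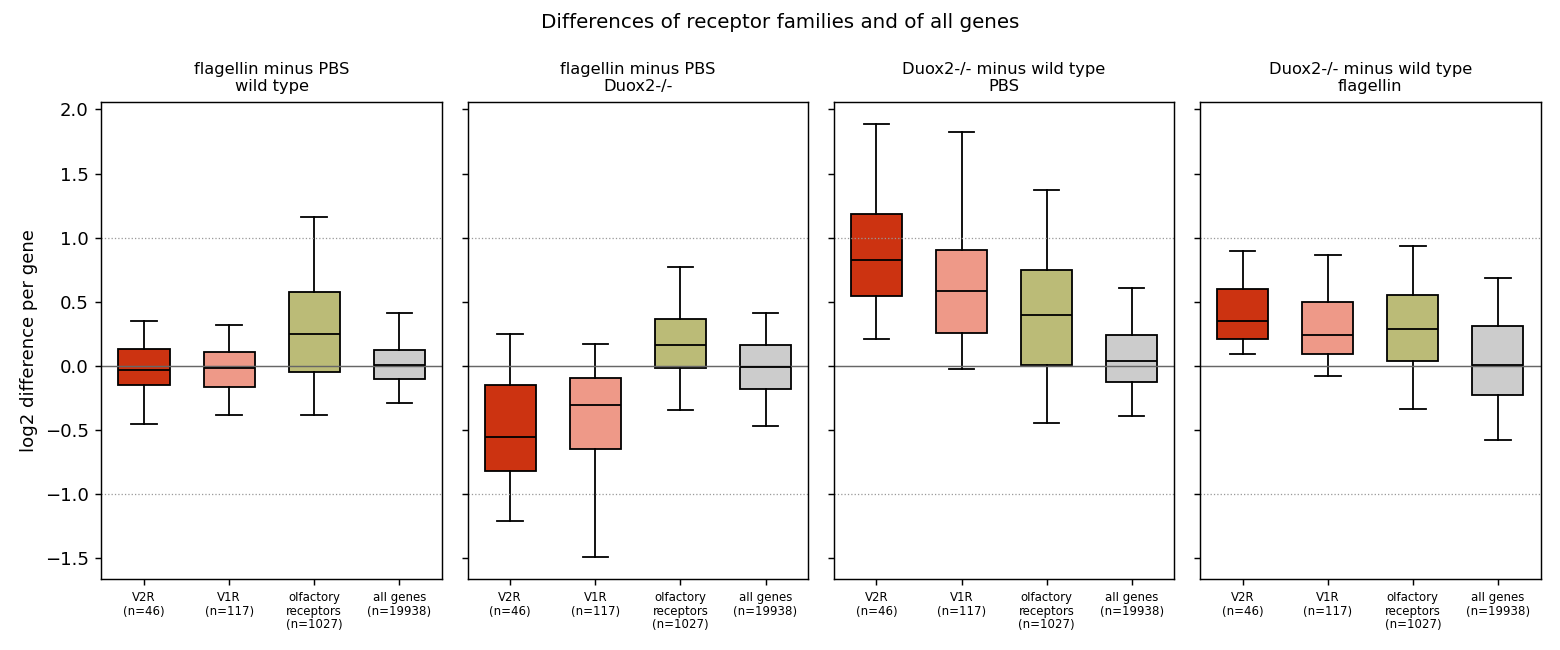
Log2 difference per gene (vertical axis) in the 4 pairwise comparisons, 1 panel each, for type 2 vomeronasal receptors (V2R), type 1 vomeronasal receptors (V1R), olfactory receptors and all genes. Boxes span the quartiles with the median as a line, whiskers the central 90% of genes, and dotted lines mark 2-fold; the V2R median is -0.03, -0.55, 0.82 and 0.35 from left to right, where the median of all genes is 0.01, -0.01, 0.04 and 0.01.

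The additive model of treatment plus genotype, fitted with limma to all genes, was the one test the 4 arrays allowed. It leaves 1 residual degree of freedom, so its error is the difference of the flagellin responses moderated over all genes, and it compares these arrays rather than animals. For genotype, 23 of 46 members were higher at a Benjamini-Hochberg adjusted p of 0.05, against 7.03% of all genes, and 0 were lower, against 2.39%. The lowest adjusted p was that of Vmn2r105, 0.00557, with a shift of 1.19 (SE 0.145). Vmn2r93 followed with a shift of 1.21 (adjusted p = 0.00614) and Vmn2r122 with 1.84 (adjusted p = 0.00642). Vmn2r105 and Vmn2r93 had genotype differences of 1.34 and 1.41 under PBS and 1.03 and 0.998 after flagellin. Vmn2r81, with a shift of 1.79, had a larger SE, 0.326, since its genotype difference was not alike in both treatments. These calls rested on the deposited scaling: after cyclic loess 0 members were called, with a lowest adjusted p of 0.104 and 21 members higher at an unadjusted p under 0.05, against 9.09% of all genes.

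For flagellin, the additive fit called 0 members in either direction, against 0.261% of all genes higher and 0.0401% lower. At an unadjusted p under 0.05, 16 members were lower, against 2.9% of all genes, and 0 higher, against 4.18%, and the lowest adjusted p in limma was 0.133, that of Vmn2r105. The shift of this receptor was -0.68.

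Members of the same gene cluster were set side by side by their genotype difference under PBS. The pair Vmn2r81 and Vmn2r83 on chromosome 10 had the highest median of the clusters with more than 1 member, 2.05. The 9 members from Vmn2r90 to Vmn2r110 on chromosome 17 had a median of 0.90, with 3 at least 2-fold higher, and the 10 members from Vmn2r65 to Vmn2r79 on chromosome 7 had 0.89, also with 3. The 6 members from Vmn2r9 to Vmn2r17 on chromosome 5 had a median of 0.77, and the 5 from Vmn2r19 to Vmn2r27 on chromosome 6 had 0.41. Within a cluster the spread was wide: on chromosome 17 it reached from 0.07 for Vmn2r109 to 1.41 for Vmn2r93, and on chromosome 5 from 0.45 for Vmn2r17 to 1.92 for Vmn2r9. Some members had no other member within 1 Mb, though Vmn2r genes without a probe set of their own were not placed. Of these members, Vmn2r1 on chromosome 3, Vmn2r120 on chromosome 17 and Vmn2r121 on the X chromosome were over 2-fold. Vmn2r118 on chromosome 17 was at 0.75 and Vmn2r18 on chromosome 5 at 0.42. Vmn2r52 and Vmn2r60 on chromosome 7 were at 0.40 and 0.00.

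**Figure D4:**
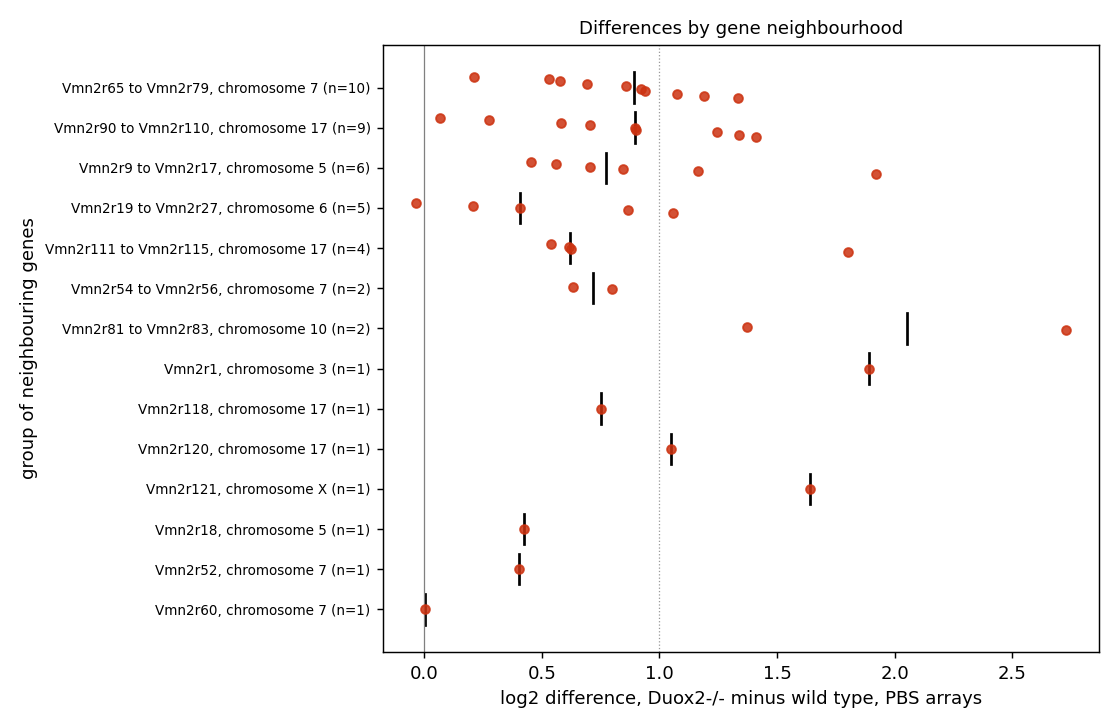
Log2 difference, Duox2-/- minus wild type in the PBS arrays (horizontal axis), of members grouped with neighbours at most 1 Mb apart on GRCm38.p6 (vertical axis); Vmn2r122 was not placed. Each point is a gene, the black bar the median of its group and the dotted line 2-fold; the pair on chromosome 10 has a median of 2.05 and the group on chromosome 6 a median of 0.41.

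Close copies did not always give close signals. Over the 300-base RefSeq start regions, Vmn2r111 and Vmn2r112 were 98.3% identical, and their PBS differences were 0.61 and 0.62. Vmn2r113, 84.3% identical to Vmn2r112, had 1.80. Vmn2r9 and Vmn2r15, 87.7% identical, had 1.92 and 1.16. Across the 30 of 903 pairs that were at least 80% identical, the median gap between the differences of the pair was 0.39, against 0.49 for the other pairs. The median identity of all pairs was 49.7%. Pairs share genes and are not independent, and signals of near copies may share RNA through cross-hybridisation, so the values of Vmn2r111, Vmn2r112 and Vmn2r115 (96.7% or more identical to each other) are uncertain as values of separate genes.

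The start regions were searched on both strands for 4 short motifs, as a description of letters and not of binding, and a match of one may overlap a match of another. TATAAA, the TATA box, was in 13 of 43 members, 30.2%, against 15.7% of the 27025 genes with a start region. The E-box CAGGTG was in 14, 32.6%, against 22.6%. GCCNNNGGC, a motif of AP-2 factors such as Tfap2e, was in 4, 9.30%, against 18.5%. TAATTA, a homeodomain core, was in 5, 11.6%, against 6.12%. Of the 13 members with a start region and a 2-fold PBS difference, 4 held TATAAA, 6 the E-box, 3 the AP-2 motif and 3 the homeodomain core.

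Of 6 members with a second probe set, 5 gave a second reading, since both probe sets of Vmn2r113 carry identical values. Under PBS the genotype difference was 0.61 and 0.56 for Vmn2r111, 0.45 and 0.69 for Vmn2r17, and 1.37 and 1.18 for Vmn2r83. For Vmn2r65 it was 1.19 and 0.51. For Vmn2r23 it was 1.06 and 0.26. All second probe sets were above 0, but those of Vmn2r65 and Vmn2r23 did not reach 2-fold.

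The type 1 vomeronasal receptors, which mark the apical neurons of the same organ, had a like order of arrays. Their 117 genes had medians of 3.31, 3.33, 4.04 and 3.65 in wild type with PBS and flagellin and Duox2-/- with PBS and flagellin, in that order. The genotype difference under PBS had a median of 0.59, with 26 genes at least 2-fold higher, 22.2% against 34.8% of the type 2 receptors. The Duox2-/- PBS array was highest in 94 of 117, 80.3%, against 19.5% of all genes. The 1027 olfactory receptors, of the main olfactory epithelium, differed in their order. The Duox2-/- flagellin array was highest in 610, 59.4%, and the Duox2-/- PBS array in 174, 16.9%. These shares were 35.9% and 19.5% over all genes. They were 59.8% and 25.8% over the 1200 non-receptor genes with signals like those of the type 2 receptors. The olfactory receptors were brighter, with array medians from 5.32 to 6.11. No gene set of their own signal range was compared. The flagellin difference of the olfactory receptors in the Duox2-/- arrays had a median of 0.17, above 0, where that of the type 2 receptors was below it. These signs held under each scaling tried. The 3 Vmn2r pseudogenes with a probe set had a median PBS difference of 0.92.

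The MHC class Ib genes that accompany type 2 receptors in basal neurons had, with B2m, 10 members on the list. Under PBS 9 were higher in Duox2-/- than in wild type, against 56.3% of all genes and 81% of the 1200 dim non-receptor genes. The median PBS difference was 0.43, with 3 at least 2-fold higher, against 1.34% of all genes. Under the other scalings this PBS median lay between 0.22 against genes of the same level and 0.34 with centred arrays, and 2 were at least 2-fold higher. After flagellin the median genotype difference was also 0.43, with 7 of 10 above 0, so it was not smaller than under PBS. That median was 0.12 against genes of the same level and 0.37 with centred arrays. H2-M10.5 read 3.71 and 3.34 in wild type with PBS and flagellin and 5.83 and 4.22 in Duox2-/- with PBS and flagellin. H2-M1 read 3.50, 3.84, 5.56 and 4.52 in the same order. Both were highest in the Duox2-/- PBS array, with the Duox2-/- flagellin array second. H2-M10.2, the third of the 3, read 5.39, 5.36, 6.40 and 5.99, with a PBS difference just at the 2-fold size. H2-M10.4, H2-M10.6 and, by a small margin, H2-M9 had this order of arrays too. Not all class Ib genes did. H2-M11 read 3.70, 3.79, 4.01 and 4.45, highest in the Duox2-/- flagellin array. H2-M10.1 read 3.71, 3.78, 4.06 and 3.65, lowest in that array. H2-M10.3 read 6.25, 6.61, 7.20 and 6.60, with the wild-type flagellin array second. B2m, the light chain of MHC class I in all cells, read 10.87, 11.68, 10.83 and 10.32 and did not share the order of H2-M10.5 and H2-M1 either.

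Of the formyl peptide receptors of vomeronasal neurons, 4 of 5 were matched. All 4 were higher in Duox2-/- than in wild type under PBS, against 56.3% of all genes and 81% of the 1200 dim non-receptor genes. The median was 0.62, with none at 2-fold. After flagellin all 4 were again higher, with a median of 0.47 and none at 2-fold. Fpr-rs4 read 3.46, 3.70, 3.93 and 4.09 in wild type and then Duox2-/-, each with PBS and flagellin, so it was highest in the Duox2-/- flagellin array. Fpr-rs3 read 5.69 and 5.46 in wild type with PBS and flagellin and 6.46 in both Duox2-/- arrays. Fpr-rs6 read 2.69, 2.56, 3.62 and 3.10.

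The shared signalling genes of the neurons lay on both sides of 0. Of the vomeronasal transduction list, 13 of 14 were matched to a gene, with Trpc2 only on a probe set of several genes, and the median PBS difference was 0.03, with 7 of 13 above 0 and none at 2-fold. Gnao1, the G protein subunit of basal neurons, read 9.13, 9.14, 9.18 and 9.48 in wild type with PBS and flagellin and Duox2-/- with PBS and flagellin, in that order. Gng8 read 7.07, 6.81, 7.06 and 7.14. Neither stood out in the Duox2-/- PBS array. Gng2, a G protein gamma subunit, read 6.77, 6.83, 7.45 and 7.10 and was highest in that array, with a PBS difference of 0.69, the largest of the list, and Ano1, a chloride channel, had the lowest, -0.28. Gnao1 and Gng8, like Omp, are also expressed in the olfactory epithelium. Tfap2e, a transcription factor of basal vomeronasal neurons, read 6.31, 6.36, 6.80 and 6.97, higher in both Duox2-/- arrays, and the 13 matched genes of the neuron lineage list had a median of 0.15. The olfactory transduction list, 18 genes, had a median of -0.01.

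Of the ligand list, 4 of 21 genes were matched. Esp1, an exocrine gland peptide of tears, read 5.11, 5.16, 5.45 and 5.62. Mup5, a lipocalin of the major urinary protein family, read 11.43, 10.70, 12.53 and 12.64, higher in both Duox2-/- arrays. Mup3 and Mup21 were dim, with highest signals of 3.88 and 4.07.

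Markers of glands and of other tissues differed between the arrays too. The nasal gland secretion list, 12 genes matched, had a median PBS difference of -0.08 but held 3 genes that were at least 2-fold higher. Bpifb9a and Bpifb9b, which encode vomeromodulin of the nasal and vomeronasal glands, read 5.47 and 6.26 in wild type with PBS, 7.56 and 8.76 in wild type with flagellin, 12.24 and 12.83 in the Duox2-/- PBS array and 12.24 and 12.94 in the Duox2-/- flagellin array. They were high in both Duox2-/- arrays alike, unlike the receptors. Lcn3 and Lcn4, lipocalins of vomeronasal glands, were bright in all arrays, at 12.67, 12.09, 12.51 and 12.32 for Lcn3 and 12.77, 12.03, 12.66 and 12.33 for Lcn4.

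Genes of tooth enamel and dentine, 6 of 6 matched, had summed linear signals of 207 and 202 in wild type with PBS and flagellin and 1193 and 337 in Duox2-/- with PBS and flagellin. All 6 were higher in the Duox2-/- PBS array, 4 of them at least 2-fold. Ambn, the enamel protein ameloblastin, read 4.77, 5.09, 9.15 and 6.24, and Dspp, the precursor of dentine proteins, read 5.77, 5.40, 7.85 and 6.17. In both the Duox2-/- PBS array was first and the Duox2-/- flagellin array second, as in most receptors. Klk4 went another way, with 5.97, 6.04, 6.30 and 6.48, highest in the Duox2-/- flagellin array. Mmp20 had a PBS difference of 0.80. Skeletal muscle genes, 10 of 10, had summed signals of 451, 1316, 2771 and 669 and were all at least 2-fold higher in the Duox2-/- PBS array. Muscle was also higher after flagellin in the wild-type arrays, by a median of 1.13, where the receptors were at -0.03. The part of this tissue content in the receptor difference was not tested.

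The other lists moved less under PBS than the tooth and muscle lists, whose medians were 2.56 and 2.57. The median Duox2-/- minus wild type difference was -0.25 for sustentacular cells and Bowman glands, -0.01 for endothelium, 0.41 for fibroblasts, 0.71 for neutrophils, -0.12 for macrophages, -0.26 for ciliated cells and -0.42 for squamous epithelium. All 8 neutrophil genes were above 0 under PBS, against 56.3% of all genes, and 2 were at least 2-fold higher, against 1.34%. Neutrophil genes were also higher after flagellin in wild type, by a median of 1.53, unlike the receptors.

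**Figure D5:**
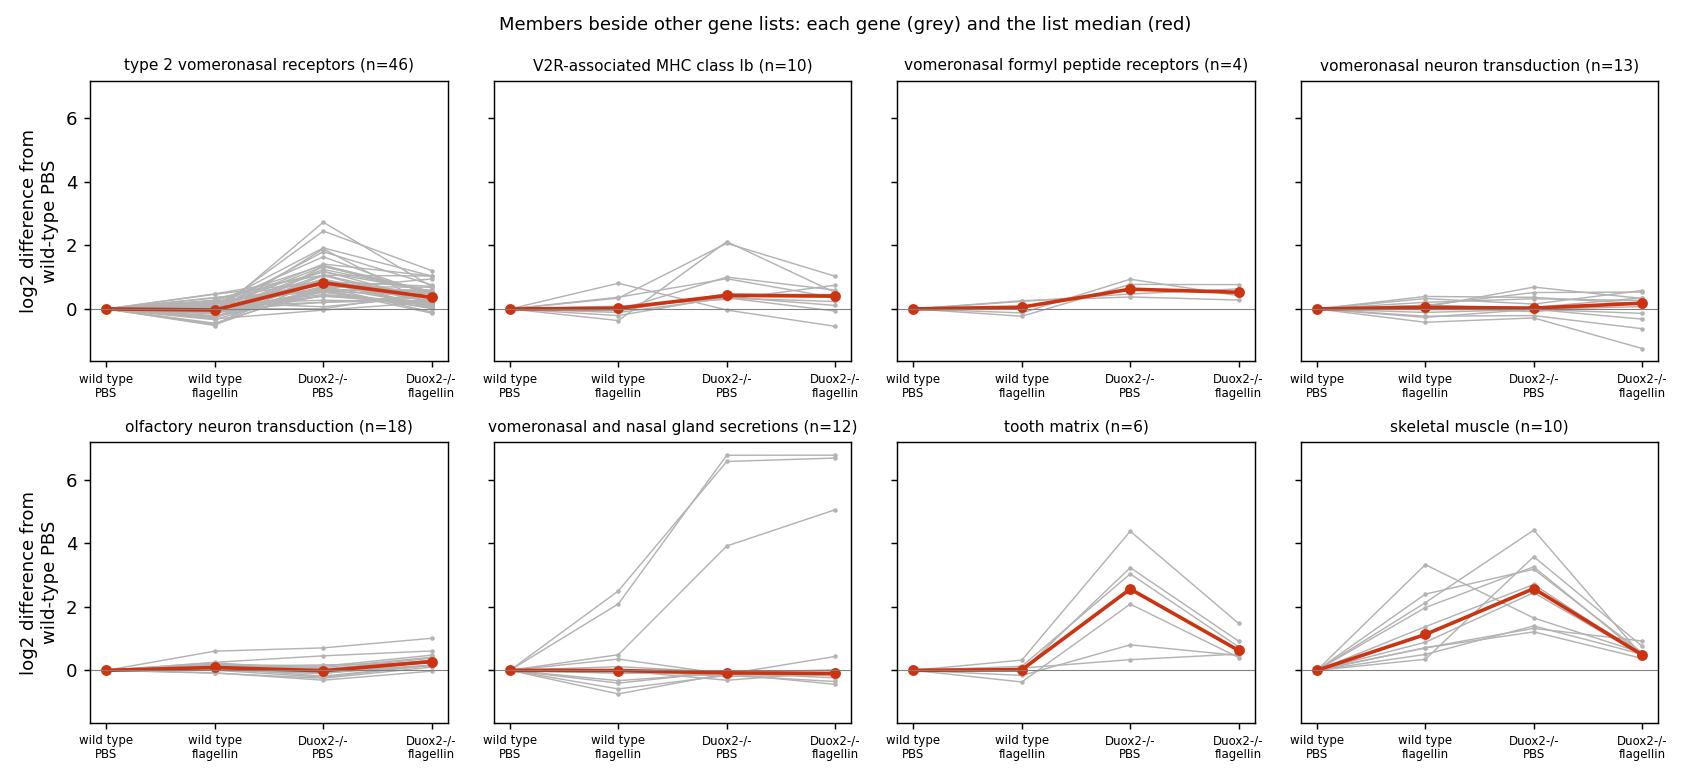
Log2 difference from the wild-type PBS array (vertical axis) in each of the 4 arrays (horizontal axis) for the type 2 vomeronasal receptors and 7 gene lists, with each gene in grey and the list median in red; lines join the arrays of a gene and stand for no order in time. The receptors and the MHC class Ib, formyl peptide receptor, tooth matrix and skeletal muscle lists have their highest median in the Duox2-/- PBS array. In contrast, 3 gland genes are high in both Duox2-/- arrays, and the median of the vomeronasal transduction list is 0.03 above wild type in the PBS arrays.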

How the data were processed

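Per the submitters' processing notes, the authors made the deposited values with RMA in Affymetrix Expression Console 1.1. Their range, 1.43 to 13.7, shows a log2 scale. No label names the build used for the probe sets. Symbols came from the platform annotation. Of 35556 probe sets, 21789 list 1 gene and 1621 several, and gene values use the former. Of 90 probe sets that list a Vmn2r gene, 52 list 1 gene and 38 list several, up to 14. These 38 carry 36 further Vmn2r genes and were counted separately.

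The 4 pairwise differences of log2 values were counted at 2-fold, with no filter on dim genes, so all 46 members were measured. The additive model used limma 3.58.1 under R 4.3.3 (lmFit, then eBayes with 9 prior degrees of freedom, Benjamini-Hochberg adjustment at 0.05 over 19938 genes). The code was also run on simulated data with even noise and a genotype shift alike in both treatments. That simulation had no shift of dim genes between arrays, so it does not vouch for the calls made here. Other work used Python 3.11.15, numpy 2.4.6, pandas 2.3.3 and matplotlib 3.10.9. The named members were family C receptors, the 10 with the highest means, the 6 highest and 3 lowest in each comparison, the 4 highest and 4 lowest by response difference, receptors with described ligands and up to 5 called by limma. The members, the 16 gene lists (135 of 161 memberships matched) and the rules were chosen with earlier results of these data known. Alternatives were another probe set per gene, centring, quantile renormalisation, cyclic loess, an intensity trend, a 1.5-fold size and 2 added after the data were seen. The number of arrays limits the precision.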

Additional observations from a re-analysis of the deposited data

Results flagged for a closer look

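Probe sets that list several genes stayed out of the member values. Of the 38 with a Vmn2r gene among them, 33 were at least 2-fold higher in the Duox2-/- PBS array than in the wild-type PBS array, and all 38 were above 0, with a median log2 difference of 1.97 and a range from 0.17 to 3.07. Of the 1583 other probe sets that list several genes, 2.27% were at least 2-fold higher in this comparison, and their median was 0.05. After flagellin the genotype difference of these probe sets had a median of 0.72, and 13 were at least 2-fold higher, against 1.07% of the others. With flagellin, the Duox2-/- arrays differed by a median of -1.43 and 22 were at least 2-fold lower, against 2.08% of the others, while the wild-type arrays differed by a median of -0.27 and none was at 2-fold. Each such probe set reads a mix of copies, so these are not values of single receptors, and several may read the same genes.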

How the results depend on the processing

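No median over the members turned its sign in the alternatives run, and the 2-fold PBS count of 16 was 13 with centred arrays, quantile renormalisation, cyclic loess or the level adjustment. The PBS genotype median was 0.68 with quantile renormalisation, 0.63 with cyclic loess, 0.62 against genes of the same level and 1.14 over all probe sets listing a member; the count was 51 over those probe sets and 31 at 1.5-fold. After flagellin the genotype median was 0.17 with cyclic loess, 0.12 against genes of the same level and 0.53 over all probe sets, and the count was 1 with centring, quantile renormalisation or cyclic loess, 0 against genes of the same level, 15 over all probe sets and 12 at 1.5-fold. For flagellin in Duox2-/- the median was -0.78 and the lower count 28 over all probe sets, and 21 at 1.5-fold. The response difference was -0.52 against genes of the same level. The genotype calls of limma numbered 15 with centring, 6 with quantile renormalisation and 0 with cyclic loess, and the genes called higher fell from 1402 to 448, 238 and 1; the cause was not tested. The level adjustment and the use of all probe sets were chosen after seeing the data. Among the named members, the alternatives moved 14 values beyond the limit and left 526. With the median of its probe sets Vmn2r23 was 0.66 for genotype under PBS and 0.12 for flagellin in wild type, and against genes of the same level the differences after flagellin of Vmn2r1 (-0.02), Vmn2r14 (-0.17), Vmn2r26 (-0.33), Vmn2r83 (-0.06) and Vmn2r118 (-0.01) were below 0.

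A filter on dim genes left no member and gives no value. An alternative by protein identity was not run. Leaving out a replicate was not possible with 1 array per group. No paired analysis was possible because each group had 1 array. The members' signals lay mostly below the median of all values.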
